A study of Mus musculus with 21 samples.

Results

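The transcripts of 6 genes of the plasminogen system were followed in murine fibroblasts with and without loss of the transcription factor Prrx1: the activators Plau and Plat, the receptor Plaur, and the serpins Serpine2, Serpinb2 and Serpinf1. The genes were chosen by symbol (PLAU, PLAT, PLAUR, SERPINE2, SERPINB2 and SERPINF1 in the tables), and all 6 of 6 were listed among the 24540 genes of the 3 count tables and passed the filter on low counts in every comparison. RNA was sequenced from 21 cultures in 7 groups of 3, all immortalized with papillomavirus oncogenes and grown in medium with serum to near confluence. Mouse embryonic fibroblasts (MEF, labelled C57BL/6) came from embryos of embryonic day 10 to 13 and were WT, mutant (knock-in embryos of 129S-Prrx1tm1Jfm/Mmmh mice) or edited by CRISPR/Cas9 with a guide against Prrx1 (sgPrrx1). Wound-healing fibroblasts (C57BL/6) came from the dorsal wound area at day 10, and MMTV-CAF, cancer-associated fibroblasts of FVB/NJ mice, from MMTV-PyMT breast tumors. In both of these types sgPrrx1 cells were compared with WT cells. A non-targeting guide (sgNS) served as the WT control of editing, but whether the WT MEF carried it is not given. The 3 WT MEF cultures are the reference for both the mutant and the sgPrrx1 MEF, so these comparisons share their controls. Nothing states that the 3 cultures of a group were derived separately or whether edited cells were clonal, so the p-values measure only the spread between these cultures, which may be technical.

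Plasminogen is an inactive precursor in blood and tissue fluid that is cut into plasmin, a protease that dissolves fibrin and degrades matrix proteins. Urokinase (Plau) and tissue plasminogen activator (Plat) make this cut, and the urokinase receptor (Plaur) holds urokinase at the cell surface. Inhibitors of the serpin family trap the activators, and fibroblasts use the system in wound repair and in the stroma of tumors. Serpine2, a protease nexin, inhibits thrombin, urokinase and plasmin. Serpinb2 inhibits both activators and stays largely inside cells. Serpinf1 (pigment epithelium-derived factor) has the serpin fold but is not known as an inhibitor of proteases.

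The genes lie on 5 chromosomes of the mm10 build (GRCm38.p6, RefSeq), with both Serpine2 (chr1:79794317-79858665, minus strand) and Serpinb2 (chr1:107500892-107525600, plus strand) on chromosome 1. Plau is at chr14:20836662-20843388, Plat at chr8:22757722-22782848, Plaur at chr7:24460937-24475970 and Serpinf1 at chr11:75410029-75422623. Promoter sequence from RefSeq was found for 4 of the 6 genes, and the 250 bases before the start site are shown for the 3 serpins because Serpine2 changed in opposite directions by type, Serpinb2 rose in every edited type and Serpinf1 fell in every comparison with WT. Capitals mark matches on either strand to TAATT (a homeodomain core), TATAAA (the TATA box), TGANTCA (an AP-1 site) or GGGCGG (a GC box), where adjoining capitals can hold overlapping matches. The stretches are chr1:79858666-79858915 (minus strand) for Serpine2, chr1:107511173-107511422 (plus strand, before 1 of 2 listed starts, which lies inside the span of the gene) for Serpinb2 and chr11:75422624-75422873 (minus strand) for Serpinf1, each written 5′ to 3′ on the strand of the gene.
Serpine2: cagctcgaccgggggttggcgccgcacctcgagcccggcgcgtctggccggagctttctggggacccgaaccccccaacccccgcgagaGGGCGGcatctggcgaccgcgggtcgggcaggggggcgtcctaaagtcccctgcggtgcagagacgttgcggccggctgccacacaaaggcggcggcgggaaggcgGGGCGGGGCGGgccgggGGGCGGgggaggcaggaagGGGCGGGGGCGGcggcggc
Serpinb2: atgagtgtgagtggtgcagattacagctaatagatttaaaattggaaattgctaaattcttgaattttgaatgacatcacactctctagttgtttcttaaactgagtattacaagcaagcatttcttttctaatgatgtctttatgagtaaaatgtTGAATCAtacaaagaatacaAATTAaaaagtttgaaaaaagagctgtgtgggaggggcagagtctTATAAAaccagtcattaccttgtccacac
Serpinf1: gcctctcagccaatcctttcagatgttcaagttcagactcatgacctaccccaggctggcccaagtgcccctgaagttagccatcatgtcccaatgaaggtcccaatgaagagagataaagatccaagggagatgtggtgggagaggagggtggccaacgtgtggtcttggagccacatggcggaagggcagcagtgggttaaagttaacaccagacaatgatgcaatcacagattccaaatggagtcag
Base composition differed between these windows, at 78.8% G and C for Serpine2, 32.4% for Serpinb2 and 51.6% for Serpinf1, against a median of 52% over 27025 promoter windows of the same length. The Serpine2 window held 6 matches to GGGCGG, some of them overlapping, and none to the other letters. The Serpinb2 window held 1 match to TGANTCA, whose first base lies 94 bases before the start site. It also held 1 match to TAATT at 74 bases and 1 match to TATAAA at 29 bases before the start. No match to the 4 motifs was present in the Serpinf1 window, and the Plaur window, at 59.6% G and C, held 1 match to TGANTCA and 3 matches to GGGCGG, the last pair of which overlap. Over all windows, TAATT was present in 25.4%, TATAAA in 13.0%, TGANTCA in 6.87% and GGGCGG in 32.9%.

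Levels are given as CPM, the count of a gene scaled to the total of its library with TMM factors, and every culture held 69588655 to 134790440 counts. The targeted gene was checked first. Prrx1 was at 192, 166 and 184 CPM in WT MEF, at 26.1, 20.7 and 19.9 CPM in mutant MEF and at 126, 94.9 and 140 CPM in sgPrrx1 MEF, so the edited MEF kept 52.5% to 77.7% of the WT mean as transcript and the mutant at most 14.5%. In wound-healing fibroblasts Prrx1 was at 147 ± 4.68 CPM (SD, n = 3) in WT and 64.9 ± 0.578 CPM in sgPrrx1 cultures, and in MMTV-CAF at 632 ± 4.63 and 306 ± 4.39 CPM. Its fall passed the test in all 4 comparisons (edgeR adjusted p from 7.22e-10 to 0.0145). Transcript level need not show how much Prrx1 protein was left, which these data do not measure. The 9 fibroblast markers summed to 12205 to 12475 CPM in WT MEF, 5595 to 6849 in mutant MEF, 9589 to 11274 in sgPrrx1 MEF, 8231 to 8379 in WT and 3239 to 3255 in sgPrrx1 wound-healing fibroblasts, and 31717 to 32315 in WT and 15763 to 15965 in sgPrrx1 MMTV-CAF. The marker sum was thus lower in each loss group than in its WT, but not every marker fell. In MMTV-CAF Pdgfra rose from 939 ± 16.8 to 1835 ± 6.21 CPM with editing, and Dcn from 32.4 ± 0.776 to 588 ± 8.70 CPM. Vim was at 5075 ± 285 CPM in WT and 6504 ± 771 CPM in sgPrrx1 MEF. The other markers were lower in each loss group, apart from Lum in sgPrrx1 MEF, with at most 12 counts in WT and 8 in edited cultures. The part of these markers in the results was not tested. The 6 epithelial markers summed to at most 13.6 CPM and the 6 leukocyte markers to at most 7.89 CPM in any culture, with Adgre1 at 0 throughout. Of the 4 endothelial markers, Kdr alone was high, in wound-healing fibroblasts (286.9 to 293 CPM for the list in WT and 140.0 to 145 in sgPrrx1 cultures). Sex-linked genes also differed within a type: Kdm5d had 0 to 3 counts in mutant MEF and 744 to 923 in WT MEF, and Ddx3y 164 to 183 counts in sgPrrx1 and 1622 to 1923 in WT wound-healing fibroblasts. Whether WT and loss cultures differ in origin as well as in Prrx1 cannot be told apart from these data.

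The expression of the 6 genes changed with Prrx1 loss, in directions that depended on the gene and on the fibroblast type. Serpinf1 was the only one of the 6 lower in all 4 comparisons with WT. Serpinb2 was higher in the edited cultures of all 3 types. Serpine2 went down in both MEF comparisons and up in the other two types. The activators Plau and Plat were lower in MEF and wound-healing fibroblasts and slightly higher in MMTV-CAF, and Plaur showed the opposite directions. In bulk RNA, fewer cells that express a gene and less of its RNA per cell cannot be told apart.

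**Figure D1:**
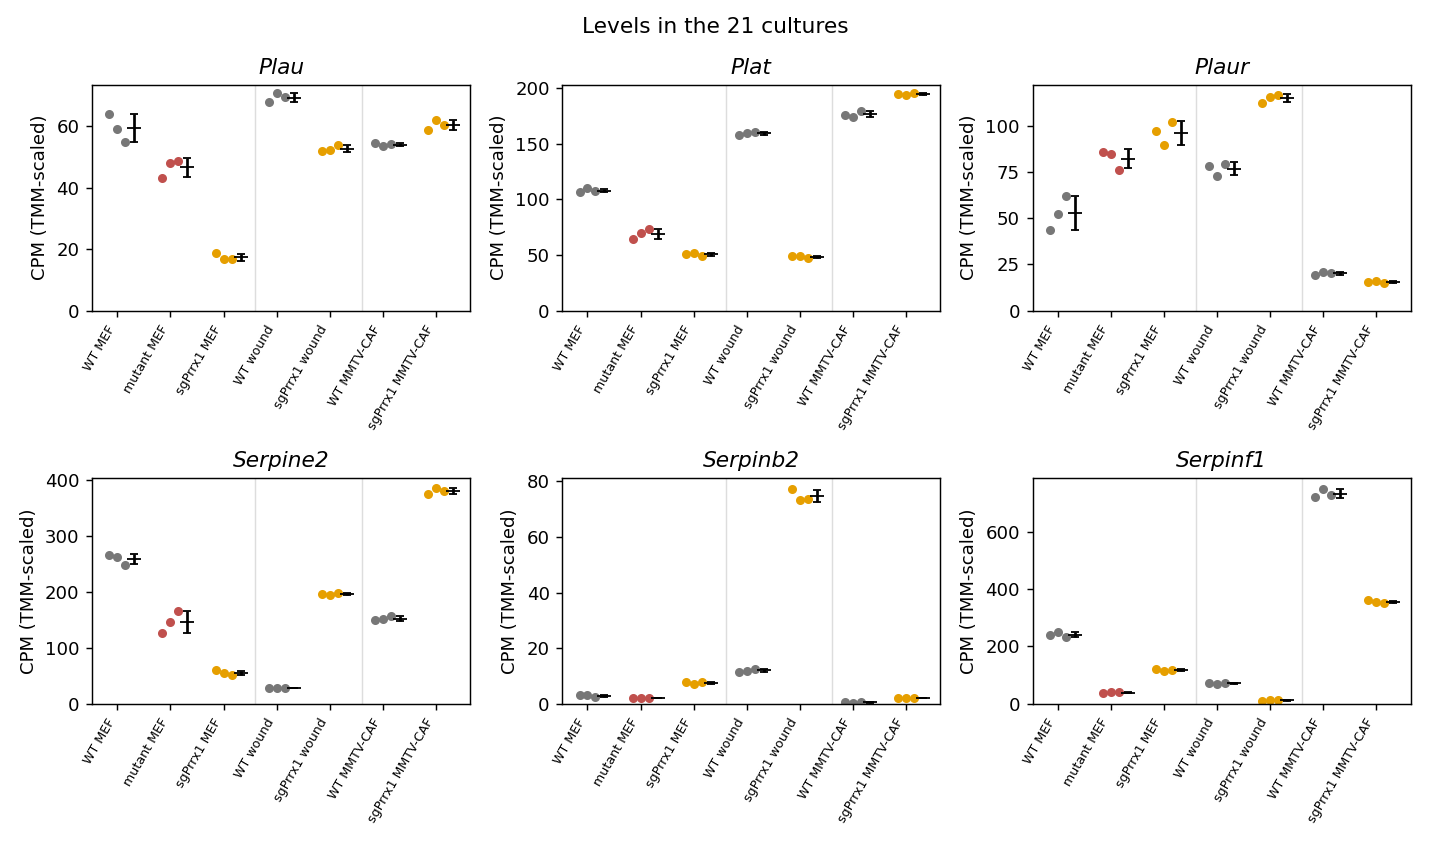
Level of each gene in the 21 cultures (TMM-scaled CPM, linear axes starting at 0, 1 panel a gene). Points are cultures and bars the mean ± SD of 3 cultures. WT groups are grey, mutant MEF red and sgPrrx1 groups orange. In no panel do the 3 cultures of a loss group overlap those of their WT, from Serpinf1 in WT MMTV-CAF (732 CPM) down to Serpinb2 in the same cultures (0.481 CPM). Such separation was common, at 56.5% to 84.8% of all genes by comparison.

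A large share of the genes tested moved in these comparisons, from 43.1% to 83.1% against WT, and the members have to be read against that background. In mutant MEF, 4 of the 6 genes were lower, 1 was higher and 1 did not pass the test, where 59.9% of the 13616 genes tested passed at an adjusted p under 0.05 (30.5% lower and 29.4% higher). In sgPrrx1 MEF, 4 were lower and 2 higher against 43.1% of genes called (22.8% lower and 20.3% higher). In sgPrrx1 wound-healing fibroblasts, 3 were lower and 3 higher against 77.6% (39.3% and 38.3%), and MMTV-CAF had 2 lower and 4 higher against 83.1% (41.9% and 41.2%). Between edited and mutant MEF, which share no culture, 3 were lower and 3 higher in the edited cells, where 56.2% of genes were called. The culture ranges of WT and loss groups did not overlap for any of the 6 genes, which held for 68.1%, 56.5%, 80.2% and 84.8% of genes in the same 4 comparisons. Passing the test was therefore common, and size separated the comparisons more. At 2-fold or more, 1 of the 6 genes was called in mutant MEF (24.1% of all genes), 5 in sgPrrx1 MEF (10.6%), 3 in edited MMTV-CAF (24.3%) and 4 in edited wound-healing fibroblasts (15.6%). The median size of the log2 fold change over the 6 genes was 0.64 in mutant MEF, 1.27 in sgPrrx1 MEF, 0.73 for MMTV-CAF and 2.18 for wound-healing fibroblasts, and over all genes tested 0.52, 0.32, 0.49 and 0.37 in the same order.

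**Figure D2:**
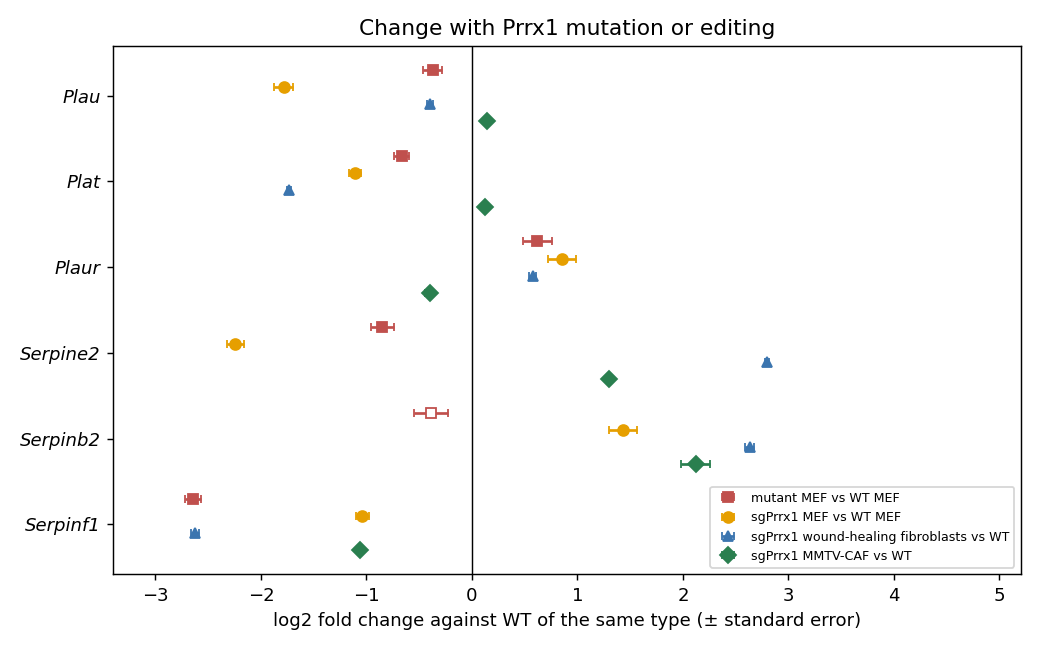
Log2 fold change of the 6 genes against WT of the same fibroblast type (edgeR, bars ± SE, 3 against 3 cultures). Filled symbols passed an adjusted p of 0.05, and the open symbol, Serpinb2 in mutant MEF, did not. Serpinf1 lies left of 0 in all 4 comparisons, and Serpine2 spans from -2.24 in sgPrrx1 MEF to 2.79 in wound-healing fibroblasts.

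Plau, which encodes urokinase, changed most in edited MEF. Its level was 63.9, 59.3 and 54.9 CPM in WT MEF and 18.7, 16.8 and 16.6 CPM in sgPrrx1 MEF, a 3.45-fold lower level (log2 fold change -1.79, SE 0.09, edgeR adjusted p = 2.42e-05). The mutant MEF lay between them at 43.2, 48.1 and 48.6 CPM (log2 fold change -0.37, SE 0.09, adjusted p = 0.00935). Both loss groups were below every WT culture, but the fall was larger with editing than with the mutant allele. Compared directly, sgPrrx1 MEF had less Plau than mutant MEF (log2 difference -1.42, adjusted p = 2.47e-05). Prrx1 transcript was higher in sgPrrx1 than in mutant MEF (log2 difference 2.44, adjusted p = 6.79e-05), and protein was not measured. In wound-healing fibroblasts Plau was 68.0, 70.8 and 69.5 CPM in WT and 52.1, 52.2 and 54.1 CPM in sgPrrx1 cultures (log2 fold change -0.40, SE 0.03, adjusted p = 1.95e-06). In MMTV-CAF it was 54.5, 53.5 and 54.3 CPM in WT and 58.9, 62.0 and 60.4 CPM in sgPrrx1 cultures (log2 fold change 0.14, SE 0.02, adjusted p = 0.00081). This rise of 1.10-fold was larger than the replicate spread and smaller than the change of most genes, since 15.8% of the genes tested moved less.

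Plat, the gene of tissue plasminogen activator, was lower in MEF and in wound-healing fibroblasts after Prrx1 loss. WT MEF had 107, 110 and 107 CPM, mutant MEF 64.6, 69.4 and 73.7 CPM and sgPrrx1 MEF 51.2, 51.4 and 49.1 CPM. The 3 groups did not overlap, and the falls were 1.59-fold in the mutant (log2 fold change -0.67, SE 0.07, edgeR adjusted p = 0.000292) and 2.16-fold in edited MEF (log2 fold change -1.11, SE 0.06, adjusted p = 3.38e-05). In wound-healing fibroblasts the level went from 158, 160 and 160 CPM in WT to 48.6, 48.6 and 47.0 CPM in sgPrrx1 cultures. This was the largest change of Plat, 3.33-fold (log2 fold change -1.73, SE 0.02, adjusted p = 1.06e-10), and larger than that of 92.3% of genes. MMTV-CAF started from 176, 174 and 180 CPM and rose to 195, 194 and 196 CPM (log2 fold change 0.12, SE 0.02, adjusted p = 0.000232). Thus the activator fell to 48.1 ± 0.961 CPM in one edited type and stood at 195 ± 0.798 CPM in another, and the effects of editing differed between these types (log2 difference 1.87, SE 0.06, adjusted p = 1.64e-14).

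Plaur, the urokinase receptor gene, was higher in MEF and wound-healing fibroblasts with Prrx1 loss. It was at 43.6, 52.3 and 61.9 CPM in WT MEF, 85.8, 84.4 and 76.1 CPM in mutant MEF and 96.8, 89.3 and 102 CPM in sgPrrx1 MEF. WT MEF varied more among themselves than any other group for this gene, but the highest WT culture stayed below the lowest of both loss groups. The log2 fold changes were 0.62 (SE 0.13, edgeR adjusted p = 0.00612) in mutant and 0.86 (SE 0.13, adjusted p = 0.00245) in edited MEF, and 0.58 (SE 0.03, adjusted p = 5.08e-07) in wound-healing fibroblasts, where the level went from 76.8 ± 3.37 to 115 ± 2.13 CPM (SD, n = 3). In MMTV-CAF the receptor was scarcer, at 19.2, 20.6 and 20.5 CPM in WT and 15.4, 16.1 and 14.8 CPM in sgPrrx1 cultures, a fall (log2 fold change -0.40, SE 0.04, adjusted p = 5.45e-05). The difference between edited and mutant MEF was 0.23 on the log2 scale (SE 0.08, adjusted p = 0.0478) and lost its call under most alternatives. In mutant MEF, edited MEF and edited wound-healing fibroblasts the receptor was higher while both activators were lower.

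Serpine2, an inhibitor of thrombin and urokinase, moved in opposite directions by type. WT MEF held 265, 263 and 247 CPM, mutant MEF 126, 147 and 166 CPM and sgPrrx1 MEF 59.7, 54.2 and 51.4 CPM. The mutant cultures spread widely, yet all lay below WT and above the edited cultures. The fall was 1.80-fold in the mutant (log2 fold change -0.85, SE 0.10, edgeR adjusted p = 0.000514) and 4.73-fold in edited MEF (log2 fold change -2.24, SE 0.08, adjusted p = 8.01e-06). In wound-healing fibroblasts the same edit went with a rise from 28.5, 27.9 and 28.2 CPM in WT to 196, 195 and 198 CPM. This 6.94-fold rise (log2 fold change 2.79, SE 0.02, adjusted p = 1.68e-11) exceeded the change of 96.5% of genes. In MMTV-CAF the level rose 2.46-fold, from 149, 151 and 157 CPM to 375, 385 and 380 CPM (log2 fold change 1.30, SE 0.02, adjusted p = 8.3e-10). The difference of the sgPrrx1 effect between wound-healing fibroblasts and MEF was 5.03 on the log2 scale (SE 0.11, adjusted p = 6.33e-16), a 32.6-fold contrast, where 55.6% of all genes passed the test of this difference. Between MMTV-CAF and MEF the difference was 3.55 (SE 0.10, adjusted p = 7.19e-15, 56.1% of genes called), and Serpine2 rose less in MMTV-CAF than in wound-healing fibroblasts (log2 difference -1.48, SE 0.10, adjusted p = 6.11e-10, 63.0% of genes called). The 2 types differed in the WT as well, with 9.16-fold less Serpine2 in WT wound-healing fibroblasts than in WT MEF (log2 difference -3.20, SE 0.08, adjusted p = 4.85e-16).

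Serpinb2, the intracellular inhibitor, was the least abundant of the 6 genes per length in WT cultures and rose in every edited type. MMTV-CAF had 50 to 64 counts of it in WT, or 0.523, 0.436 and 0.483 CPM, and 2.10, 2.19 and 2.05 CPM in sgPrrx1 cultures. Low as they were, the groups were far apart relative to their spread, and the rise was 4.35-fold (log2 fold change 2.12, SE 0.14, edgeR adjusted p = 1.77e-06). In wound-healing fibroblasts the level went from 11.6, 11.8 and 12.7 CPM to 77.3, 73.4 and 73.5 CPM, a rise of 6.20-fold (log2 fold change 2.63, SE 0.04, adjusted p = 2.72e-10). In MEF it went from 3.02, 2.995 and 2.38 CPM to 7.81, 7.13 and 7.84 CPM with editing (log2 fold change 1.43, SE 0.13, adjusted p = 0.000296). The mutant MEF did not share this rise. They held 2.15, 2.16 and 2.20 CPM, below all 3 WT cultures, with a log2 fold change of -0.39 (SE 0.16) that did not pass the test (adjusted p = 0.0696). Without WT MEF replicate 3, the lowest of the WT cultures, this fall was called (log2 fold change -0.50, adjusted p = 0.0299). With all cultures kept, edgeR also called it in a model of all 9 MEF cultures (log2 fold change -0.39, adjusted p = 0.0212). The same held in the model of all 21 cultures (log2 fold change -0.36, adjusted p = 0.00101). Edited and mutant MEF differed in Serpinb2 by 1.81 on the log2 scale (SE 0.09, adjusted p = 1.31e-05). Serpinb2 is also known from activated macrophages. The 6 leukocyte markers summed to 3.36 to 4.26 CPM in WT and 4.78 to 5.46 CPM in sgPrrx1 MEF, and to 2.82 to 3.58 CPM in WT and 3.91 to 5.12 CPM in sgPrrx1 wound-healing fibroblasts, so this sum was higher where Serpinb2 was higher. Csf1r, one of them, went from 2.08 ± 0.103 to 3.64 ± 0.706 CPM and from 0.823 ± 0.102 to 1.59 ± 0.235 CPM in the same groups. Cd68, another of them, went from 1.54 ± 0.350 to 1.32 ± 0.312 CPM in MEF and from 2.34 ± 0.306 to 2.44 ± 0.345 CPM in wound-healing fibroblasts. Itgam had 0 to 12 counts in WT and 0 to 3 in edited MEF, and Lyz2 0 to 16 and 0 to 2, too few to give a direction. The higher sum in edited MEF thus lay mainly with Csf1r. In wound-healing fibroblasts Lyz2 was higher with editing (0.00772 to 0.332 CPM), at 0 to 2 counts in WT and 18 to 35 in sgPrrx1 cultures. For MMTV-CAF the sum went the other way, from 6.90 to 7.89 CPM in WT to 0.929 to 1.05 CPM in sgPrrx1 cultures. Adgre1 was at 0 and Ptprc at no more than 11 counts in every culture, and the part of such cells in the levels of Serpinb2 was not tested.

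Serpinf1, which encodes a secreted serpin known for its action against vessel growth, fell in all 4 comparisons. WT MEF held 240, 249 and 232 CPM, mutant MEF 38.1, 39.3 and 40.2 CPM and sgPrrx1 MEF 120, 115 and 119 CPM. Here the mutant showed the larger fall, 6.24-fold (log2 fold change -2.64, SE 0.07, edgeR adjusted p = 1.8e-06), against 2.06-fold in edited MEF (log2 fold change -1.04, SE 0.06, adjusted p = 4.26e-05). In wound-healing fibroblasts it fell 6.17-fold, from 71.4, 69.9 and 73.0 CPM to 11.2, 12.1 and 11.6 CPM (log2 fold change -2.62, SE 0.03, adjusted p = 1.31e-10). In MMTV-CAF, where it was most abundant, it fell 2.09-fold, from 721, 749 and 726 CPM to 360, 354 and 351 CPM (log2 fold change -1.06, SE 0.02, adjusted p = 2.6e-09). Expressed as transcript against the WT mean of the same type, Serpinf1 stood at 15.8% to 16.7% in mutant MEF, where Prrx1 stood at 14.5% or less. In sgPrrx1 MEF Serpinf1 stood at 47.9% to 49.8% and Prrx1 at 52.5% to 77.7%. In sgPrrx1 MMTV-CAF both were near the same share, 48.0% to 49.2% and 47.7% to 49.0%. In sgPrrx1 wound-healing fibroblasts Serpinf1 (15.7% to 16.9%) was further down than Prrx1 (43.7% to 44.4%). Prrx1 protein was not measured, so these shares of transcript need not show how much Prrx1 was lost. The effect of editing on Serpinf1 was not shown to differ between MEF and MMTV-CAF (log2 difference -0.02, SE 0.05, adjusted p = 0.851), and it was larger in wound-healing fibroblasts than in MEF (log2 difference -1.59, SE 0.06, adjusted p = 2.44e-13).

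Across the 7 groups, the genes spanned very different ranges of level. The highest group mean exceeded the lowest 3.99-fold for Plau, 4.05-fold for Plat, 7.42-fold for Plaur, 13.5-fold for Serpine2, 63.0-fold for Serpinf1 and 156-fold for Serpinb2. Plau was highest in WT wound-healing fibroblasts and lowest in sgPrrx1 MEF, and its neighbours in between overlapped in part (sgPrrx1 MMTV-CAF with WT MEF, and WT MMTV-CAF with sgPrrx1 wound-healing fibroblasts). Plat ran from sgPrrx1 MMTV-CAF through WT MMTV-CAF, WT wound-healing fibroblasts, WT MEF, mutant MEF and sgPrrx1 MEF to sgPrrx1 wound-healing fibroblasts with no overlap of neighbours. Plaur was highest in sgPrrx1 wound-healing fibroblasts and lowest in sgPrrx1 MMTV-CAF, and mutant MEF overlapped WT wound-healing fibroblasts. For Serpine2 the extremes were sgPrrx1 MMTV-CAF and WT wound-healing fibroblasts, with WT MMTV-CAF and mutant MEF overlapping. Serpinb2 was highest in sgPrrx1 wound-healing fibroblasts and lowest in WT MMTV-CAF, with mutant MEF and sgPrrx1 MMTV-CAF overlapping. Serpinf1 went from WT MMTV-CAF to sgPrrx1 wound-healing fibroblasts with no overlap of neighbours. How many of all genes separate the 7 groups in this way was not counted. Separation was common between WT and loss groups, at 56.5% to 84.8% of genes.

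The WT types differed in all 6 genes when compared pairwise in a model of all 21 cultures, against 77.4% of genes called between wound-healing fibroblasts and MEF, 76.1% between MMTV-CAF and MEF and 76.8% between MMTV-CAF and wound-healing fibroblasts. The widest gap was in Serpinb2, 25.0-fold lower in WT MMTV-CAF than in WT wound-healing fibroblasts (log2 difference -4.64, SE 0.09, edgeR adjusted p = 1.46e-17). Serpinf1 was 10.2-fold higher in MMTV-CAF than in wound-healing fibroblasts (log2 difference 3.36, SE 0.04, adjusted p = 7.12e-20), and Plaur 3.81-fold lower (log2 difference -1.93, SE 0.09, adjusted p = 1.62e-12). The smallest of these differences were in Plau and Plat. Plau was 1.10-fold lower in MMTV-CAF than in MEF (log2 difference -0.13, SE 0.06, adjusted p = 0.0431), and Plat 1.11-fold higher in MMTV-CAF than in wound-healing fibroblasts (log2 difference 0.15, SE 0.04, adjusted p = 0.00381). Both of these small differences lost their call under some of the alternatives. The sex-linked gene Xist was at 428 ± 38.7 CPM in WT MMTV-CAF, 0.0153 CPM in WT MEF and 0.0469 CPM in WT wound-healing fibroblasts. Type, tissue of origin, stage (embryos for MEF), strain (FVB/NJ for MMTV-CAF, C57BL/6 for the others), sex-linked expression and count table differ together here and cannot be told apart.

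To compare genes with one another, levels were divided by the merged exon length of each gene, 1396 bases for Plaur to 3830 bases for Serpine2. On this scale of CPM per kb, Serpinf1 led the 6 genes in WT MEF (102), WT MMTV-CAF (310.3) and sgPrrx1 MMTV-CAF (151). Plat led in WT wound-healing fibroblasts (63.0), closely followed by Plaur (55.0). Plaur led in mutant MEF (58.8), sgPrrx1 MEF (68.8) and sgPrrx1 wound-healing fibroblasts (82.2). Serpinb2 was the last of the 6 in every group except sgPrrx1 wound-healing fibroblasts, where it reached 31.8 CPM per kb, above Plau (22.5) and Plat (19.0). In those cultures Serpinf1 came last at 4.92 CPM per kb. On this scale the leading gene thus passed from an activator or a serpin to the receptor in mutant MEF, edited MEF and edited wound-healing fibroblasts. It did not change in MMTV-CAF. The order depends on the division by length, and Plaur is the shortest of the 6. By CPM alone, Serpine2 exceeded Plaur in mutant MEF (146 against 82.1) and edited wound-healing fibroblasts (196 against 115). Serpinf1 did so in edited MEF (118 against 96.0).

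**Figure D3:**
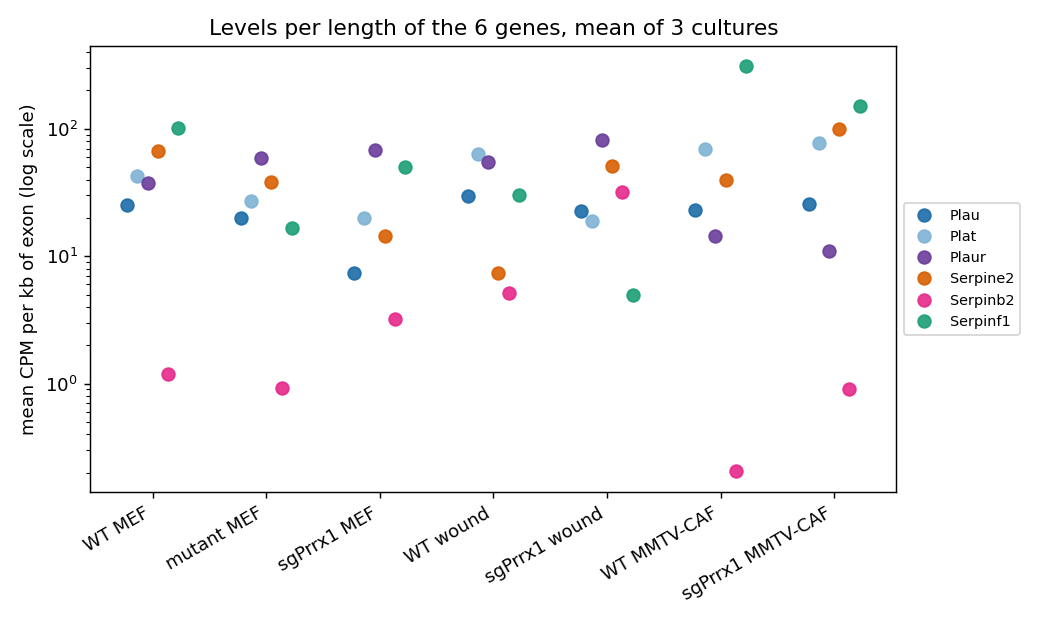
Mean level of the 6 genes per length (CPM per kb of exon, log axis) in each of the 7 groups, 1 colour a gene, without error bars. Plaur is the top point in mutant MEF, sgPrrx1 MEF and sgPrrx1 wound-healing fibroblasts, and Serpinf1 in WT MEF and both MMTV-CAF groups.

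The patterns most like each gene over the 21 cultures were described by Pearson correlation of log2 CPM with 15092 other genes, without a test, since the cultures form 7 groups of 3 and share types and Prrx1 status. Serpinf1 was closest to Bnc2 (r = 0.991) and Pdxk (0.980), followed by the collagen receptor Mrc2 (0.979). Plaur was closest to Eaf1 (r = 0.992), Slc6a15 (0.982) and Aff2 (0.981), and Plat to Acat2 (0.972), Nrep (0.970) and Adm (0.968). For Serpinb2 they were Atg9b (0.975), Trit1 (0.968) and Gm12603 (0.966). The best matches were weaker for Plau (Lipo3, 0.942; Manba, 0.911; Zfp467, 0.898) and for Serpine2 (Rnf182, 0.919; Gm2115, 0.918; Acad11, 0.901).

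A further 27 genes of the system were examined from a list chosen by function. Of these, 7 had at most 5 counts in every culture, among them Plg, the gene of plasminogen itself, and 18 were tested in at least 1 comparison with WT. In mutant MEF 10 of 16 tested genes were lower, 3 higher and 3 not called (all genes tested, 30.5% lower and 29.4% higher), with a median log2 fold change of -0.58 against 0.01 over all genes tested. In sgPrrx1 MEF 9 of 16 were lower and 3 higher (all genes, 22.8% and 20.3%), with a median of -0.36 against 0.00. In sgPrrx1 wound-healing fibroblasts 7 of 16 were lower and 8 higher (all genes, 39.3% and 38.3%), with a median of 0.09 against 0.00. Edited MMTV-CAF had 10 of 17 lower and 5 higher (all genes, 41.9% and 41.2%), with a median of -0.51 against 0.00. Among them, 2 genes were lower in all 4 comparisons, none was higher in all 4, and 13 were called in both directions. These calls used edgeR's quasi-likelihood test at an adjusted p under 0.05.

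The genes lower in all 4 comparisons were F3, which encodes tissue factor, the starter of the clotting cascade, and Mrc2, a collagen receptor that binds the urokinase receptor complex. For F3 the log2 fold changes were -0.76 in mutant MEF, -0.48 in sgPrrx1 MEF, -1.99 in wound-healing fibroblasts (from 189 ± 1.29 to 47.6 ± 1.42 CPM) and -1.77 in MMTV-CAF (from 416 ± 7.16 to 123 ± 0.489 CPM). For Mrc2 they were -1.07, -0.38, -0.82 and -0.71 in the same order. The receptors that clear complexes of activator and inhibitor from the surface did not move together. Lrp1 had log2 fold changes of -1.34, -0.52, 0.15 and -2.03, while Vldlr went from 99.8 ± 11.6 to 4.74 ± 0.487 CPM in mutant MEF (log2 fold change -4.42, SE 0.13, adjusted p = 1.8e-06) and changed by 0.13 in MMTV-CAF. Sorl1 was higher in mutant MEF (log2 fold change 3.30) and in sgPrrx1 wound-healing fibroblasts (2.46) and lower in sgPrrx1 MEF (-1.002). Thbd, or thrombomodulin, whose complex with thrombin activates an inhibitor of fibrin breakdown, was lower in wound-healing fibroblasts by 3.34 on the log2 scale, from 57.3 ± 1.57 to 5.70 ± 0.474 CPM. Its log2 fold changes were smaller elsewhere, at -0.31 in mutant MEF, -0.88 in sgPrrx1 MEF and 0.16 in MMTV-CAF. Tfpi2, a plasmin inhibitor, had 0 to 4 counts in WT and 103 to 183 in sgPrrx1 wound-healing fibroblasts, and 136 to 175 counts in WT but 0 to 2 in sgPrrx1 MMTV-CAF. The surface binding genes Anxa2, S100a10, Eno1 and Plgrkt changed by at most 0.53 on the log2 scale.

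**Figure D4:**
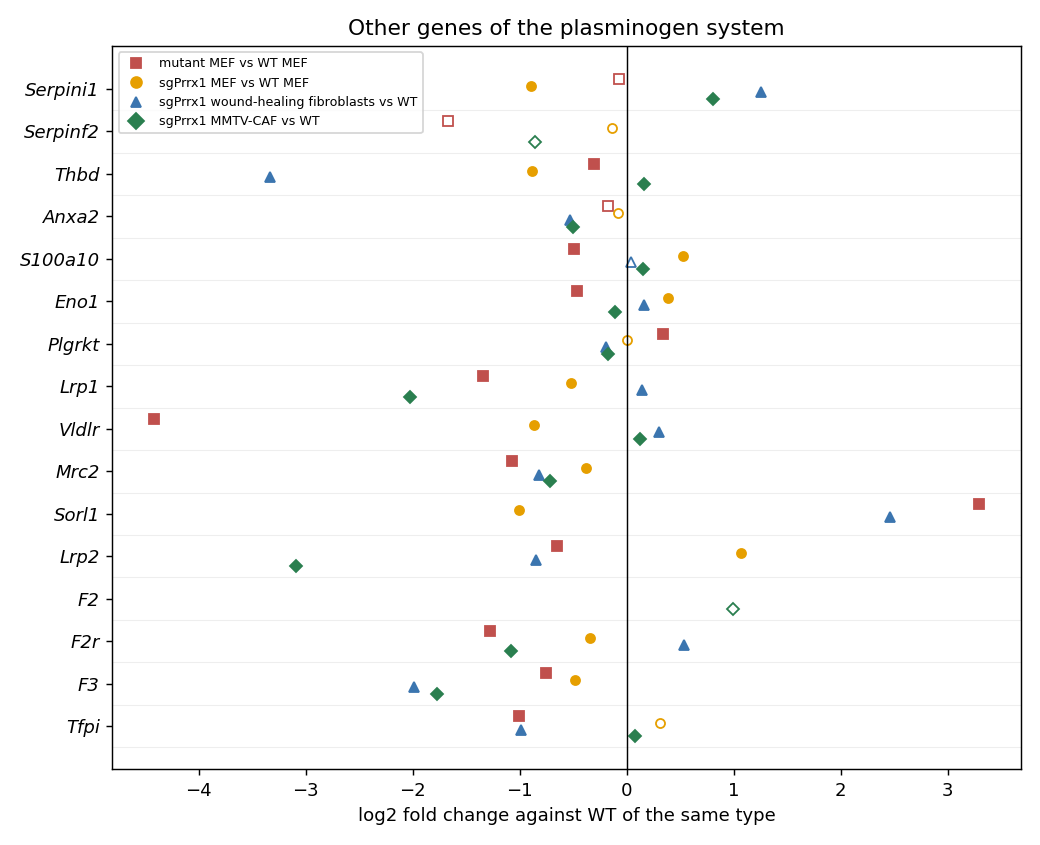
Log2 fold change against WT of the same fibroblast type for other genes of the plasminogen system that were tested (edgeR, 3 against 3 cultures). Filled symbols passed an adjusted p of 0.05, open symbols did not, and Tfpi2 is left out because some groups are at or near 0 counts. F3 and Mrc2 lie left of 0 in all 4 comparisons, and the lowest point is Vldlr in mutant MEF (-4.42).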

How the data were processed

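For every type of fibroblast the authors deposited 1 count table, with whole numbers of reads by gene and no normalization. Libraries of total RNA were made with a TruSeq v2 kit, and per the submitters' notes processing used Trimmomatic for trimming, STAR for alignment (mm10) and HTSeq for counting. The kit does not mark strand, so reads of overlapping antisense genes cannot be told apart. The methods on murine and human bulk RNA name ComBat-seq, a batch correction, after the human alignment, and whether the deposited mouse counts had been corrected is not given in the sources used here. Of the deposited counts from 1 to 20, 51.0% to 60.3% per culture were even, more than an equal split, so an alternative with counts divided by 2 was added after seeing the data. All 21 columns were used and 0 were left out. The columns of wound-healing fibroblasts and MEF do not name their type, which was taken from the table's groups.

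The analysis used edgeR 4.0.16 in R 4.3.3. In each comparison the 6 cultures entered a model of their own, genes were kept by filterByExpr, normalized by TMM, and compared by quasi-likelihood tests (glmQLFit, glmQLFTest), with Benjamini-Hochberg adjustment over all genes tested at a threshold of 0.05. Differences between fibroblast types came from a model of all 21 cultures. SEs were derived from each log2 fold change and the root of its F value. CPM used TMM factors over all 21 cultures, and lengths are merged exons of Gencode M1. Promoters came from RefSeq (GRCm38.p6). The 6 genes and the lists were chosen by symbol and function with earlier results of these data known. The text names the 6 genes, Prrx1, genes of the list of 27 (the examples among them were picked after their values were seen, and 1 gene counted in the list is not reported here) and, for each of the 6, the 3 genes of highest correlation of log2 CPM (prior count 2). No 2 cultures of a group agreed within sampling noise. DESeq2 1.42.0, other scalings and filters, a replicate block, joint models and leaving out each culture were tried.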

Additional observations from a re-analysis of the deposited data

Results flagged for a closer look

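For 16 of the 18 tests of the difference in sgPrrx1 effect between fibroblast types (6 genes in 3 pairs of types), the difference passed edgeR's test at an adjusted p under 0.05 in the model of all 21 cultures. Of all 15093 genes tested, 55.6% passed between wound-healing fibroblasts and MEF, 56.1% between MMTV-CAF and MEF and 63.0% between MMTV-CAF and wound-healing fibroblasts. Values are differences of log2 fold changes, and all 3 cultures of each edited group lay on the same side of their WT.

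In wound-healing fibroblasts minus MEF, the difference was 5.03 for Serpine2, with a rise in the first and a fall in the second. It was 1.38 for Plau (adjusted p = 2.86e-10), which fell less in wound-healing fibroblasts, and -0.64 for Plat (adjusted p = 7.98e-08), which fell more. Serpinb2 rose more in wound-healing fibroblasts, by 1.19 (adjusted p = 5.1e-08), and Serpinf1 fell more, with a difference of -1.59. Plaur did not pass (-0.29, SE 0.13, adjusted p = 0.0616).

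In MMTV-CAF minus MEF, the difference was 3.55 for Serpine2 (adjusted p = 7.19e-15), 1.93 for Plau (adjusted p = 1.24e-12) and 1.24 for Plat (adjusted p = 6.1e-12), each of which rose in MMTV-CAF and fell in MEF. Plaur went the other way with -1.25 (adjusted p = 1.64e-07). Serpinb2 rose in both, more in MMTV-CAF by 0.69 (adjusted p = 0.000113).

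In MMTV-CAF minus wound-healing fibroblasts, Plat differed by 1.87 and Plau by 0.56 (adjusted p = 1.08e-05), each up in MMTV-CAF and down in wound-healing fibroblasts. Plaur differed by -0.96 (adjusted p = 3e-06). Serpine2 and Serpinb2 rose less in MMTV-CAF, by -1.48 (adjusted p = 6.11e-10) and -0.50 (adjusted p = 0.0016). Serpinf1 fell less there, with a difference of 1.58 (adjusted p = 6.32e-14).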

How the results depend on the processing

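The 6 genes gave 66 tested results and 1074 alternative fits of them, of which 1029 kept direction and call, 33 lost the call (21 of them other than by asking for a 2-fold change), 8 gained it and 4 reversed. All 4 reversals concern the uncalled Serpinf1 difference between MMTV-CAF and MEF (-0.02), which became 0.0082 with upper-quartile scaling and 0.13 with library totals alone (adjusted p = 0.0604), and ranged from -0.031 to 0.011 with 1 culture left out, above 0 without sgPrrx1 MEF replicate 1 or WT MEF replicate 3. Plaur between edited and mutant MEF lost its call with upper-quartile scaling (adjusted p = 0.0741), totals alone (0.307), no filter (0.0606), all 9 MEF cultures in 1 model (0.147) and 5 of 6 left-out cultures (all but mutant MEF replicate 1). Plat between the WT of MMTV-CAF and wound-healing fibroblasts lost its call with RLE scaling (0.0533), upper-quartile scaling (0.798) and without WT wound-healing replicate 1 or 2. Over its alternatives, Plau between WT MMTV-CAF and WT MEF ranged from an adjusted p of 0.00475 to 0.148, Plaur in the difference between wound-healing fibroblasts and MEF from 0.0018 to 0.446, and Serpinb2 in mutant MEF from 0.00101 to 0.184. With a 2-fold change required, the calls over all genes were 3283 in mutant MEF, 1411 in sgPrrx1 MEF, 2179 in wound-healing fibroblasts, 3377 in MMTV-CAF and 2838 between edited and mutant MEF. Of the 27 listed genes, 5 lower and 1 higher, 1 and 1, 2 and 3, 6 and 0, and 2 and 4 then remained called in the same order. In the model of all 21 cultures 3 in place of 5 of them were higher in MMTV-CAF, and 5 in place of 3 in the difference of MMTV-CAF minus wound-healing fibroblasts with only those groups in the model. Leaving out 1 culture at a time gave 3830 to 6340 calls in sgPrrx1 MEF against 5764, the lowest without WT MEF replicate 2 and next 3834 without sgPrrx1 MEF replicate 2. With library totals alone, 39.7% in place of 50.7% of calls were lower in wound-healing fibroblasts, 36.9% in place of 49.4% in the difference between wound-healing fibroblasts and MEF, and 39.9% in place of 51.1% in that between MMTV-CAF and MEF, and the median of all genes moved to 0.12 in wound-healing fibroblasts and to 0.13 for MMTV-CAF, with no called member changing direction. Dividing all counts by 2, chosen after seeing the data, changed none of the members' calls in the 5 comparisons it was run on. The causes were not tested.

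Same-numbered cultures did not deviate together (r from -0.355 to 0.203), so the numbers were not taken as pairs. With a replicate block the calls were 6457 in mutant MEF (8155 without), 6629 in sgPrrx1 MEF (5764), 10518 in wound-healing fibroblasts (10811), 11320 in MMTV-CAF (11552) and 5268 between edited and mutant MEF (7513), and among the members the call of Plaur between edited and mutant MEF (adjusted p = 0.16) and of Plau between WT MMTV-CAF and WT MEF (0.109) was lost. Among the 6 genes the lowest counts were those of Serpinb2 in WT MMTV-CAF (50 to 64).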
